A study of Mus musculus with 14 samples.

Results

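The genes described here encode 3 families of zinc-dependent proteases and their inhibitors: the matrix metalloproteinases (MMPs), the ADAM proteases, the secreted ADAMTS proteases and the tissue inhibitors of metalloproteinases (TIMPs). They were chosen by symbol alone, as protein-coding genes of the deposited table whose names follow the Mmp, Adam, Adamts or Timp pattern with a number, so neither their level nor their change entered the choice. This gave 49 of the 16124 genes in the table, namely 16 MMPs, 13 ADAMs, 16 ADAMTS genes and 4 TIMPs. Adam11, Adam22 and Adam23 are counted among the ADAMs but lack a catalytic zinc site. In the GENCODE annotation the same name pattern covers 77 protein-coding genes, and the others were not analysed here. All 49 had already passed the authors' filter of 10 fragments in at least 7 of the 14 libraries, which was blind to genotype.

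RNA came from mammary epithelial cells of 7 wild-type (WT) and 7 Usp22-overexpressing (OE/OE) nulliparous female mice aged 3.5 months, with 1 library per mouse, matched as littermates in pairs numbered 1, 3, 4, 5, 6, 7 and 8. OE/OE mice carry on both ROSA26 alleles a Flag- and Myc-tagged Usp22 cDNA behind the CAGGS promoter. A STOP cassette in front of it had been removed through Zp3-Cre, so that Usp22, the ubiquitin protease of the SAGA complex, is overexpressed in all tissues and not in the epithelium alone. Glands were digested with collagenase and hyaluronidase, and organoids were separated from stroma by brief spins. The measured cells are therefore enriched for epithelium and may carry other cell types of the gland. Enzymatic digestion preceded the isolation of RNA in both genotypes, and its part in the levels given here was not tested.

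MMPs cleave collagens, proteoglycans and basement membrane proteins. ADAM proteases sit in the cell membrane and release the outer parts of receptors and growth factors, and ADAMTS proteases act on proteoglycans and procollagens in the matrix. TIMPs bind the active site of these enzymes, and several MMPs and TIMPs of the mammary gland are made mostly by stromal cells around the ducts, where they take part in branching and involution.

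Depth lay between 20125106 and 41835978 counted fragments per library (median 37838930). The transgene matched the genotype in every library, since Usp22 ranged from 3500 to 5380 normalised counts in WT and from 74948 to 144288 in OE/OE. A list of 16 pan-epithelial markers, all in the table, summed to between 384245 and 719889 normalised counts per library. The 16 fibroblast markers were also all present, with sums of 91449 to 247247, and none of them was at 0 in any library. Of the OE/OE libraries, that of pair 4 stood apart, with the lowest endothelial, pericyte, adipocyte and fibroblast scores of its genotype. For several named genes the log2 fold change without pair 4 is also given.

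Levels were compared between genes per kilobase (kb) of exon, as normalised counts divided by the summed exon length. A pair of members of the ADAMTS family led the whole set. Adamts1 and Adamts4, both aggrecanases that also cut versican, had mean levels of 8288 and 7775 normalised counts per kb over the 14 libraries and together made up 91.4% of the summed level of the 16 ADAMTS genes. Next came Adam10 at 4053 per kb, the sheddase of Notch receptors and cadherins, followed by Timp2 at 3953 and Timp3 at 2825. Mmp2 (gelatinase A) was the most abundant MMP at 1681 per kb, ahead of the membrane-bound Mmp15 at 1387 and Mmp14 at 1332. These 3 MMPs held 70.0% of the MMP sum, and Adam10 alone held 57.3% of the ADAM sum. The ranges of Mmp2 (717.55 to 2376 per kb), Mmp15 (960.31 to 2124) and Mmp14 (958.93 to 1852) overlapped, so their order does not stand out from the spread between mice. In all, 11 of the 49 genes exceeded 1000 per kb, against 10.1% of all genes. Between 100 and 1000 there were 8 (45.8% of all genes), between 10 and 100 there were 23 (33.1% of all genes) and under 10 there were 7 (11% of all genes).

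**Figure D1:**
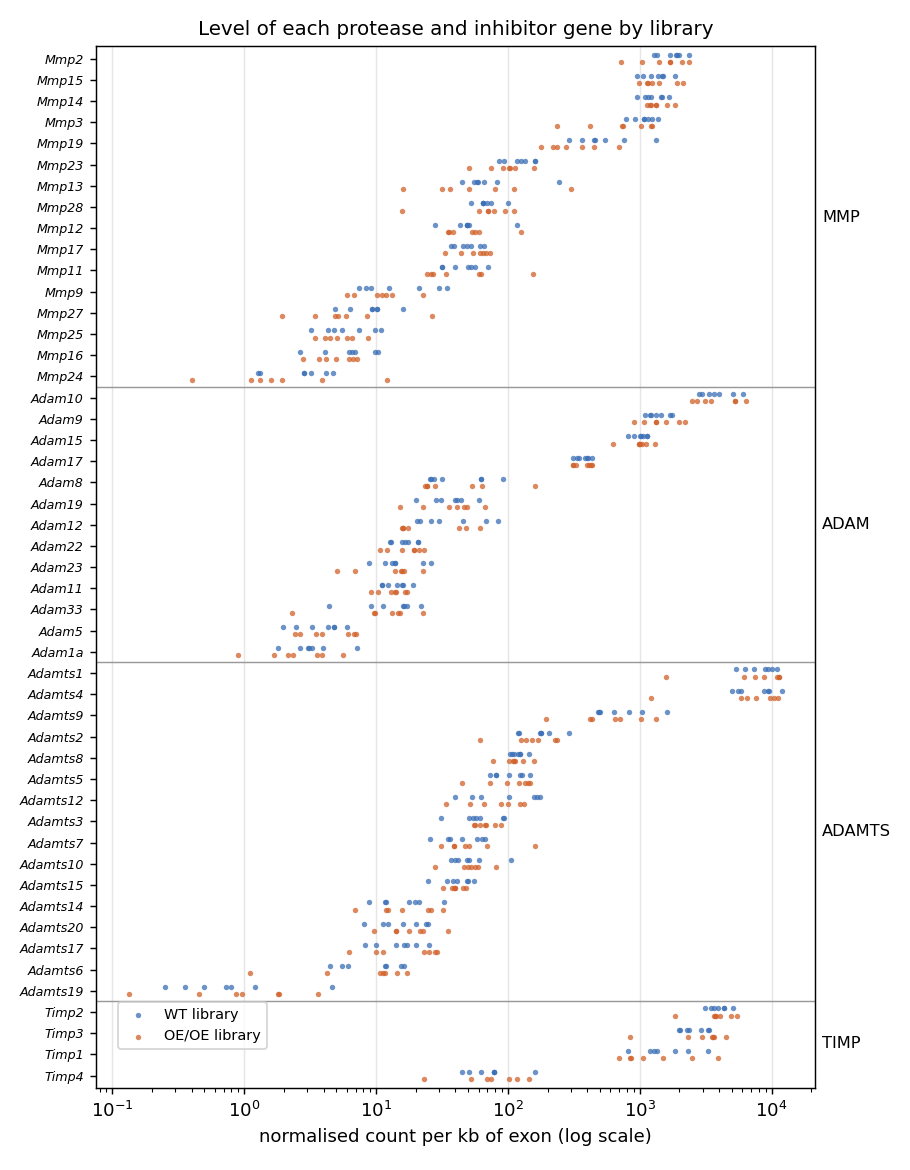
Level of the 49 genes in normalised counts per kb of exon (horizontal log axis), 1 row per gene, grouped by family and ordered by mean level. Each point is 1 library, blue for the 7 WT and orange for the 7 OE/OE mice, and the isolated low orange points of Adamts1 and Adamts4 are the OE/OE mouse of pair 4.

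The least abundant members included Mmp24, Adam1a, Adam5 and Adamts19, with mean levels of 3.05, 3.22, 4.29 and 1.30 per kb and as few as 2 to 7 fragments in their lowest library. They are named after their values were seen. Fold changes of such genes are understated by the log2(normalised count + 1) scale, and Adam1a shares 63.7% of its exon sequence with exons of neighbouring genes.

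Whether overexpression of Usp22 changed these genes was tested within littermate pairs with limma across all 16124 genes, with the pair as a block. At the threshold used for this study, an unadjusted p of 0.05 or less, 3 of the 49 genes (6.12%) passed, against 3.81% of all genes. All 3 were lower in OE/OE (background 1.85%) and 0 were higher (background 1.95%). They were Mmp19, Mmp23 and Adam12. After Benjamini-Hochberg adjustment over all genes, 0 of the 49 had a limma adjusted p under 0.05, against 0.0124% of all genes. Quasi-likelihood tests in edgeR also gave 0 (2 of all genes) and DESeq2 gave 1, Mmp19 (19 of all genes). Both tools gave 3 at the unadjusted threshold (597 of all genes in edgeR and 626 in DESeq2). The count moved with single pairs. It was 6 without pair 4 (2 higher, Timp3 and Timp4, and 4 lower, Mmp19, Mmp23, Adam12 and Adam8), 8 without pair 1, 5 without pair 8 and 1 without pair 5, while 1366, 1196, 482 and 484 of all genes passed in the same runs. Values of WT and OE/OE mice overlapped for each of the 49 genes. The share of all genes with such overlap is not given here, so this is not read as a trait of the set. With only 1 gene lower in all 7 pairs and none higher in all 7, 1 of 49 moved the same way throughout, against 1.51% of all genes.

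Mmp19 encodes a secreted protease of basement membrane proteins (chromosome 10, 128790910 to 128800824, plus strand, GRCm38). Its normalised counts ran from 1022 through a median of 1607 to 4666 in the 7 WT mice and from 632.8 through 971.4 to 2445 in the 7 OE/OE mice. The highest WT and the highest OE/OE mouse were both from pair 7, and every OE/OE mouse lay below its own littermate although the groups overlapped. Mean levels were 2109 ± 1243 in WT mice and 1220 ± 633 in OE/OE mice (SD, n = 7 each). On the log2 scale Mmp19 fell by 0.76 with a standard error of 0.14 (limma p = 0.000374, adjusted p = 0.671), and exact two-sided sign flips gave p = 0.0156, the lowest that 7 pairs can reach. Pair log2 ratios were -0.29, -0.41, -1.02, -1.07, -1.34, -0.93 and -0.26 for pairs 1, 3, 4, 5, 6, 7 and 8. Its unadjusted p stayed at 0.05 or less in each of the 22 alternatives run, with log2 fold changes between -0.85 and -0.53. The adjusted p ran over them from 0.00194 in DESeq2 to 1.00. Exons of Tmem198b and Gm47093 on the opposite strand cover 28.3% of the exon sequence of Mmp19, and fragments from the overlap cannot be told apart if counting did not use strand.

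Mmp23 encodes a small membrane-anchored member of the family (chromosome 4, 155650655 to 155653384, minus strand). It had between 198.9 and 375.5 normalised counts in WT (median 296.4) and between 118.7 and 366.4 in OE/OE (median 236.7). The groups overlapped widely, and the OE/OE mouse was below its WT littermate in 6 of 7 pairs, with pair 1 the exception. The means were 293 ± 69.1 and 231 ± 77.2 (SD, n = 7 each), and Mmp23 fell by 0.38 on the log2 scale (standard error 0.14, limma p = 0.0270, adjusted p = 1.00, exact sign-flip p = 0.0625). It did not pass without pair 3 or pair 5 (log2 fold changes -0.31 and -0.32), nor with the fibroblast marker score as a covariate, where the log2 fold change was -0.11.

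Adam12, or meltrin alpha, is a membrane protease with growth factor and matrix substrates (chromosome 7, 133883199 to 134232146, minus strand). Its WT values ran from 217.4 through a median of 316.2 to 896.5 and its OE/OE values from 165.8 through 184.2 to 652.9. In 4 of the 7 OE/OE mice it lay between 165.8 and 184.2, under the lowest WT mouse, and the other 3 were those of pairs 5, 7 and 8. Adam12 fell by 0.48 on the log2 scale (standard error 0.16, limma p = 0.0164, adjusted p = 1.00, exact sign-flip p = 0.0469) and was lower in 6 of 7 pairs. Pair 8 went the other way, with a log2 ratio of 0.44. This was also the only pair in which the pan-epithelial score was lower in OE/OE, and with that score as a covariate the log2 fold change of Adam12 was -0.033 and did not pass. Nor did it without pair 5, at -0.39.

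**Figure D2:**
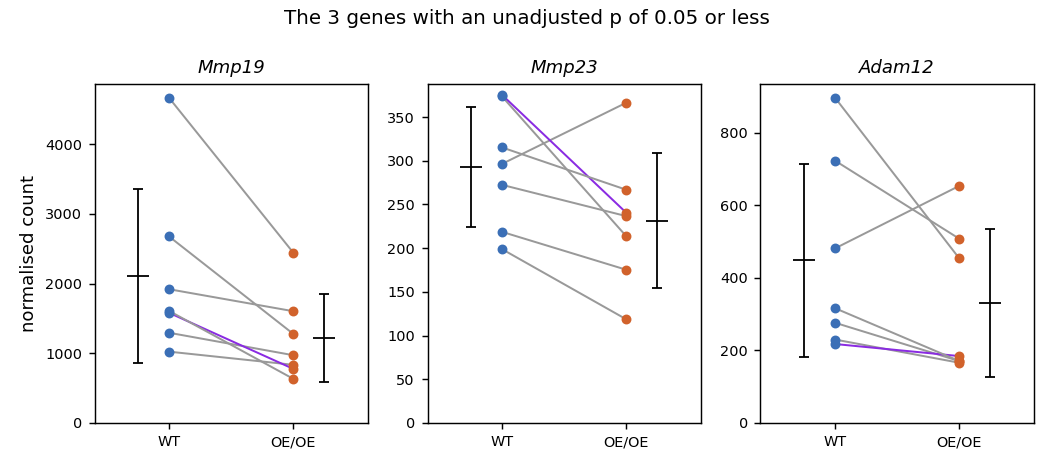
Normalised counts of Mmp19, Mmp23 and Adam12 (vertical axes from 0), with a line joining the WT and OE/OE mouse of each of the 7 pairs, pair 4 in purple, and bars for mean ± SD (n = 7). All 7 lines of Mmp19 go down, and 6 of 7 do for Mmp23 and Adam12.

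Marker genes of other cell types also differed between littermates. The adipocyte score differed in the direction of Mmp23 in every pair, and the fibroblast score did so in every pair but pair 8. Neither score went the way of Mmp19 or Adam12 in pair 1. The mean log2 level of the 16 fibroblast markers had a mean of 12.1 ± 0.35 in WT mice and 11.7 ± 0.54 in OE/OE mice (SD, n = 7). It was lower in OE/OE in 5 pairs (p = 0.0938 by exact sign flips). All 16 markers had a negative log2 fold change (50.4% of all genes), and 4 passed the unadjusted threshold as lower (1.85% of all genes). Their summed counts ran from 126953 to 247247 in WT and from 91449 to 186802 in OE/OE. The 12 adipocyte markers in the table summed to 18071 to 40917 in WT and 14881 to 38105 in OE/OE. Their score was lower in 6 pairs (p = 0.0625 by exact sign flips). Of the 12, 9 had a negative log2 fold change and 6 passed the unadjusted threshold as lower (1.85% of all genes). The 16 pan-epithelial markers were higher in 6 pairs (p = 0.0469 by exact sign flips, adjusted p = 0.281 over the 9 marker lists), by 0.13 on average on the log2 scale. Of them, 2 had a negative log2 fold change and 2 passed as higher (1.95% of all genes). For the other lists (luminal, basal and myoepithelial, endothelial, macrophage and myeloid, lymphocyte, pericyte and smooth muscle) the exact sign-flip p was between 0.250 and 1.00. In that order, 5 of 16, 10 of 15, 14 of 15, 14 of 15, 9 of 13 and 8 of 10 markers had negative log2 fold changes. Among these lists 1 luminal marker passed, as lower. In bulk samples, fewer cells of a type and less RNA per cell cannot be told apart.

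Over the 7 pairs, the difference of the fibroblast score ran beside the log2 ratio of Mmp23 with Pearson's r = 0.854 (exact permutation p = 0.0258, 0.155 after adjustment over 6 relations) and Spearman's rho = 0.786 (exact permutation p = 0.0480, adjusted p = 0.288). Without pairs 1 and 8, the farthest from the median score, r was 0.779. For Mmp19 r was 0.668 (exact permutation p = 0.104; rho = 0.536, exact permutation p = 0.236) and became -0.162 without those 2 pairs, so the relation rests on them. Adam12 had r = 0.276 (exact permutation p = 0.514; rho = -0.0714, exact permutation p = 0.906). With the adipocyte score, r was 0.650 for Mmp23, 0.307 for Mmp19 and -0.458 for Adam12 (exact permutation p = 0.110, 0.518 and 0.290), rho was 0.607, 0.000 and -0.679 (exact permutation p = 0.167, 1.00 and 0.110), and r without pairs 1 and 4 was -0.033, -0.562 and -0.653. With the fibroblast score as a covariate, the log2 fold change of Mmp19 was -0.53 and passed the unadjusted threshold, while those of Mmp23 and Adam12 were -0.11 and -0.37 and did not pass. The part of fibroblast content in the 3 changes was not tested otherwise.

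**Figure D3:**
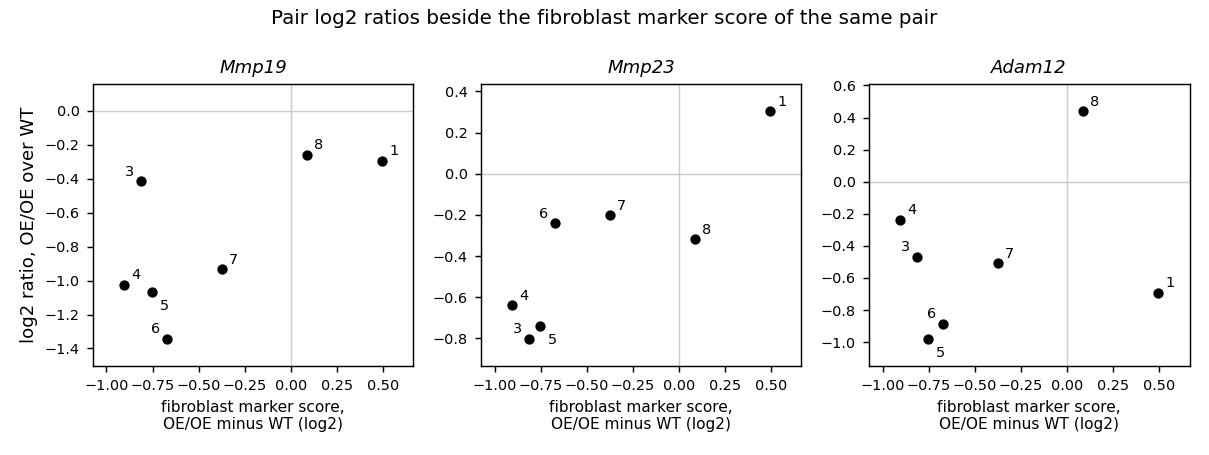
Log2 ratio of OE/OE over WT for Mmp19, Mmp23 and Adam12 (vertical) against the difference in the mean log2 level of 16 fibroblast markers (horizontal, OE/OE minus WT), with 1 point per littermate pair labelled by its number. Pearson's r is 0.668, 0.854 and 0.276 over 7 pairs, and pairs 1 and 8 hold the only positive score differences.

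Of the 16 MMPs, 12 had a negative log2 fold change, and the median was -0.28. Under TMM scaling, quantile normalization and median centring the count of negative values was 12, 11 and 12. It was 8 of 16, with a median of -0.07, when the fold was taken from untransformed means. It was 8 of 16 with the macrophage or the pan-epithelial score as a covariate and 9 of 16 with the fibroblast or the adipocyte score. Without pair 4 it was 12 of 16, with a median of -0.17. For the whole set of 49 genes 32 values (65.3%) were negative with a median of -0.08, where all genes had 50.4% negative and a median of -0.0015. The set had 32, 30 and 28 negative values under those 3 scalings. It had 26 of 49 without pair 4 (median -0.011), 25 from untransformed means (median -0.0045), and 22, 23, 26 and 25 with the fibroblast, adipocyte, macrophage and pan-epithelial scores, so the signs were close to evenly divided in these runs. The medians of ADAMs (-0.0017), ADAMTS genes (-0.016) and TIMPs (-0.042) were close to 0, and median centring turned the first 2 to 0.017 and 0.0033. Apart from Mmp19, Mmp23 and Adam12, the smallest unadjusted p of limma in the set was 0.0917.

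**Figure D4:**
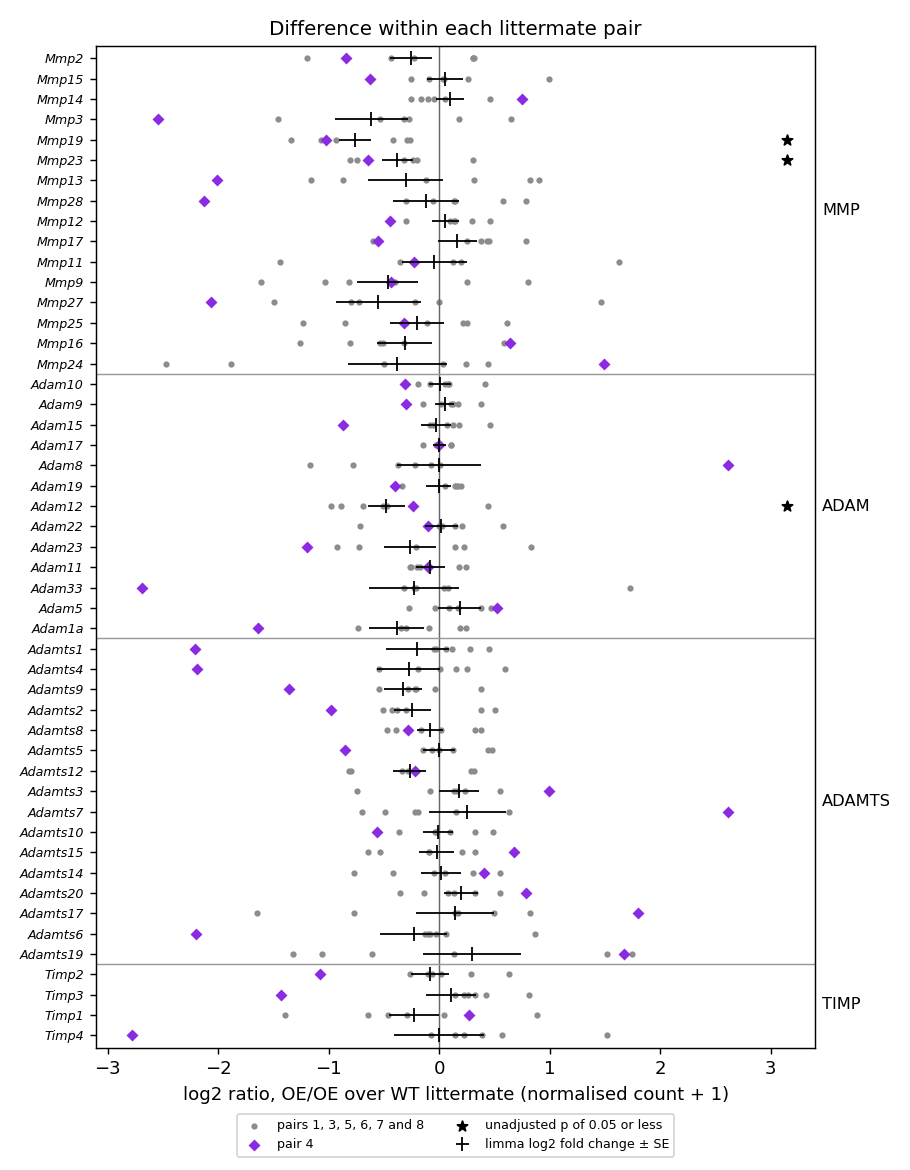
Log2 ratio of OE/OE over WT within each littermate pair for the 49 genes (horizontal axis, normalised count + 1). Grey points are 6 pairs, purple diamonds are pair 4, black ticks with bars are the limma log2 fold change ± standard error, and stars mark the 3 genes with an unadjusted p of 0.05 or less, where the ticks lie to the left of 0.

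The gelatinases and the membrane-type enzymes Mmp14 and Mmp15 did not pass the test. Mmp2 ran from 4347 to 8010 normalised counts in WT (median 6335) and from 2419 to 7983 in OE/OE (median 5720), with a log2 fold change of -0.25 ± 0.19 (standard error, exact sign-flip p = 0.328). The OE/OE mice of pairs 4 and 5 were the lowest, and without pair 4 the log2 fold change was -0.16. Mmp14, or MT1-MMP, which activates pro-MMP2 with the help of Timp2, lay between 5715 and 9916 in WT and between 6744 and 11035 in OE/OE, a log2 fold change of 0.10 ± 0.12 (exact sign-flip p = 0.547). Its highest value came from the OE/OE mouse of pair 4, so Mmp14 and Mmp2 went in opposite directions in that pair, at 0.75 and -0.85. Without pair 4 the log2 fold change of Mmp14 was -0.008. Mmp15 (MT2-MMP) had a log2 fold change of 0.053 ± 0.16 (exact sign-flip p = 0.766), and 0.17 without pair 4. Mmp9, gelatinase B of myeloid cells among others, was scarce, with 26.4 to 122.7 normalised counts in WT and 21.2 to 80.7 in OE/OE (log2 fold change -0.46 ± 0.28, exact sign-flip p = 0.172).

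Stromelysin-1, encoded by Mmp3 and known as a driver of mammary branching when overexpressed, had one of the larger differences of the set without passing the test. WT mice held 1411 to 2487 normalised counts (median 1942) and OE/OE mice 425.8 to 2223 (median 1342). The OE/OE mice of pairs 4, 5, 6 and 8 lay below every WT mouse, with 425.8 and 759.4 in pairs 4 and 5, while pairs 1 and 3 went up. The log2 fold change was -0.61 ± 0.33 (exact sign-flip p = 0.203), and without pair 4 it was -0.29. Mmp11 (stromelysin-3, a protein of stromal cells) ran from 87.4 to 197.3 in WT and from 68.0 to 427.8 in OE/OE, the highest value being that of pair 3 (log2 fold change -0.042 ± 0.29, exact sign-flip p = 0.797). Mmp27 was at 10.9 to 35.3 normalised counts in WT and 4.31 to 58.2 in OE/OE. Its log2 fold change of -0.55 ± 0.38 (exact sign-flip p = 0.203) came with pair values from -2.07 in pair 4 to 1.47 in pair 1, and it was -0.29 without pair 4.

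Mmp3 and Mmp27 belong to a cluster of 9 MMP genes on chromosome 9 (7272514 to 7699585, GRCm38, 427072 bp), of which Mmp13, Mmp12, Mmp3 and Mmp27 are analysed here. In pair 4, Mmp13, Mmp3 and Mmp27 had log2 ratios of -2.01, -2.54 and -2.07 while Mmp12, the macrophage elastase, was at -0.44. Mmp13 and Mmp12 were chosen after their values were seen. Their start regions are shown because these neighbours differed in that pair, together with that of Mmp23, the one gene past the threshold that has an entry in the RefSeq promoter table used. Each run covers 250 bases before to 50 after a RefSeq start site (GRCm38.p6), 5′ to 3′ on the gene's strand, and capitals mark the letters TGANTCA (the core of an AP-1 site) and TATAAA.
Mmp13, chr9:7272264-7272563, plus strand: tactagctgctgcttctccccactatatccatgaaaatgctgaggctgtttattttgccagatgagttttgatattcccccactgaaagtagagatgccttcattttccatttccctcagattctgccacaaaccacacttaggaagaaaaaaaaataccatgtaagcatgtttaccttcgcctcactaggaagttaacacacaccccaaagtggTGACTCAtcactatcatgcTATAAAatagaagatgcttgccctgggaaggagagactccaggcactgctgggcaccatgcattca
Mmp12, chr9:7347124-7347423, plus strand: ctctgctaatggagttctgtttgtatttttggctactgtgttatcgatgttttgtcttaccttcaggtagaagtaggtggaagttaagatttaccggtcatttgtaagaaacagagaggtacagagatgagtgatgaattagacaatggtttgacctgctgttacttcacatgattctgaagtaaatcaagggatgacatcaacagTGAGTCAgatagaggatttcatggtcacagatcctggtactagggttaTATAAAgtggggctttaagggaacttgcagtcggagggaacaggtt
Mmp3, chr9:7445572-7445871, plus strand: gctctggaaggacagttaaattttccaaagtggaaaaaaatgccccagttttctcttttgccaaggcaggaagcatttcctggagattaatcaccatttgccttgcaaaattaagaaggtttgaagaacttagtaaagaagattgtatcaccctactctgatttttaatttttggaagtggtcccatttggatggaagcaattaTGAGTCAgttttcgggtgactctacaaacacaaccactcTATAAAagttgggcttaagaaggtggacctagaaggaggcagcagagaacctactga
Mmp27, chr9:7571146-7571445, plus strand: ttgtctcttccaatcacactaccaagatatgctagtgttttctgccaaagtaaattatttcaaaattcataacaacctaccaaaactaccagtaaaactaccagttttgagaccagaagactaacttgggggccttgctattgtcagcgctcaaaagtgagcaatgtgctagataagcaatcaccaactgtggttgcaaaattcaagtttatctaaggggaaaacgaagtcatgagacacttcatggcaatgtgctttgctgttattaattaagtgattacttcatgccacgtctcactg
Mmp23, chr4:155653335-155653634, minus strand: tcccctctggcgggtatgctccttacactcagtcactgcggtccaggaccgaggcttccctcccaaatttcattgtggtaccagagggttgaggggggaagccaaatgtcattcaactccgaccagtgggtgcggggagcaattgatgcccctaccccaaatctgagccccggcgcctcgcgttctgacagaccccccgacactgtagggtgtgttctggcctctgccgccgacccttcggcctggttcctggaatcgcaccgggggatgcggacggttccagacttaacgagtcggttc
Counted from the start site, TGANTCA begins at -35 in Mmp13, -44 in Mmp12 and -46 in Mmp3, and TATAAA at -16, 5 and -7. Mmp27 and Mmp23 hold neither in these windows, nor does a second window of Mmp12 (7344147 to 7344446). The start site of that second window lies 16 bp from the GENCODE gene start of Mmp12. The start site of the Mmp12 window shown lies 2993 bp from it. Searched on both strands, without overlap between the 2 motifs in these runs, TGANTCA occurred in 4 of 35 windows of 31 genes of the set (11.4%) and in 7.81% of all 32851 windows, and TATAAA in 4 of 35 (11.4%) and 13.6%. The former 4 were Adam19, Mmp12, Mmp13 and Mmp3, and the latter Adamts1, Mmp12, Mmp13 and Mmp3. Mmp19 and Adam12 had no window.

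Pair 1 carried the highest Mmp13 and Mmp12 values of both genotypes. Mmp13, a collagenase, was at 649.1 in its WT and 808.1 in its OE/OE mouse, where the other libraries ran from 43.2 to 294.9. Mmp12 was at 851.9 and 914.0, and elsewhere between 201.4 and 435.4. The pair accounted for 93.4% of the sum of squares of Mmp12 on the log2 scale and genotype for 0.238%. Over the 49 genes the median share was 66.0% for the pair and 2.05% for genotype, against 73.9% and 1.43% for all genes.

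The sheddases Adam10 and Adam17 varied mostly between litters. Adam10 ran from 13902 to 29776 normalised counts in WT (median 18064) and from 12191 to 31581 in OE/OE (median 17102), with both maxima in pair 7. Its log2 fold change was 0.0096 ± 0.097 (exact sign-flip p = 0.906), and the pair accounted for 93.9% of its sum of squares. Adam17, the sheddase of tumour necrosis factor and amphiregulin, had 2218 to 3104 in WT and 2214 to 3101 in OE/OE. Its log2 fold change was 0.0031 ± 0.060 (exact sign-flip p = 1.00), and no pair was farther from 0 than 0.145. Adam9 had a log2 fold change of 0.052 ± 0.086 (exact sign-flip p = 0.547) and Adam15 one of -0.025 ± 0.14 (exact sign-flip p = 0.906). Both were lowest in the OE/OE mouse of pair 4, with 3691 and 3826 normalised counts, and without pair 4 the log2 fold changes were 0.11 and 0.12. Exon sequence shared with the antisense gene 4731419I09Rik makes up 20.6% of Adam15.

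Adam8, a sheddase of leukocytes and of some tumours, ran from 119.4 to 425.0 normalised counts in WT and from 109.4 to 742.4 in OE/OE. The highest value was that of the OE/OE mouse of pair 4, whose littermate had 120.2, a log2 ratio of 2.62. In the other pairs the ratios lay between -1.17 and 0.0057, and the log2 fold change was 0.0022 ± 0.38 (exact sign-flip p = 0.984). Without pair 4 it was -0.43 and passed the unadjusted threshold of limma. Of all genes, 1366 passed in that run and 614 with every pair kept. Pair 4 holds the extreme ratio of Adam8, so leaving it out was not independent of the tested values. Adamts7, chosen after its values were seen, had a ratio of 2.62 in the same pair, from 162.6 to 1004.

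None of the 16 ADAMTS genes passed the test, and the abundant ones were set apart by pair 4. Adamts1 had 28710 to 58043 normalised counts in WT (median 47563). OE/OE mice lay between 32549 and 60607, except for the mouse of pair 4 at 8418. The log2 fold change of Adamts1 was -0.20 ± 0.28 (exact sign-flip p = 0.938) over 7 pairs and 0.14 without pair 4. Adamts4 ran from 24072 to 57738 in WT and from 28427 to 54125 in 6 OE/OE mice, with 5868 in that of pair 4 (log2 fold change -0.27 ± 0.29, exact sign-flip p = 0.656, and 0.046 without pair 4). Adamts9, a protease of versican, spanned 7245 to 24105 in WT and 2938 to 19883 in OE/OE, was lower in 6 of 7 pairs and had a log2 fold change of -0.32 ± 0.17 (exact sign-flip p = 0.141). Without pair 4, where its ratio was -1.36, this value was -0.15. Adamts5, the other main aggrecanase, lay far below Adamts1 and Adamts4 at 107 per kb, with a log2 fold change of -0.0025 ± 0.15 (exact sign-flip p = 0.984), and 0.14 without pair 4.

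Among the inhibitors, Timp3, which is held in the matrix and also blocks ADAM17, was higher in OE/OE in 6 of 7 pairs. It ran from 16248 to 27102 normalised counts in WT (median 19326) and from 6882 to 36482 in OE/OE (median 28514). The low value was again that of pair 4, where its log2 ratio was -1.43, and the other 6 pairs lay between 0.14 and 0.82. Over 7 pairs the log2 fold change was 0.11 ± 0.23 (exact sign-flip p = 0.719), and without pair 4 it was 0.37 and passed the unadjusted threshold of limma. Pair 4 holds the extreme ratio of Timp3, so leaving it out was not independent of the tested values. Of all genes, 1366 passed in that run and 614 over 7 pairs. Antisense exons of Syn3 cover 21.3% of the exon sequence of Timp3. Timp2, a partner of Mmp14 in the activation of pro-MMP2, ran from 12073 to 19839 in WT and from 7262 to 21137 in OE/OE (log2 fold change -0.081 ± 0.17, exact sign-flip p = 0.688), and was at 0.086 without pair 4. Timp1 was highest in both mice of pair 4, at 2911 in WT and 3507 in OE/OE, and its pair values went from -1.39 to 0.88 (log2 fold change -0.23 ± 0.23, exact sign-flip p = 0.453). Timp4, a gene of adipose and vascular tissue, had 263.4 to 942.8 normalised counts in WT and 136.2 to 856.8 in OE/OE. Its log2 fold change was -0.0024 ± 0.41 (exact sign-flip p = 1.00) with pair 4. Without it the value was 0.46 and passed the unadjusted threshold. Pair 4 also holds the extreme ratio of Timp4, at -2.78, so the same limit applies.

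**Figure D5:**
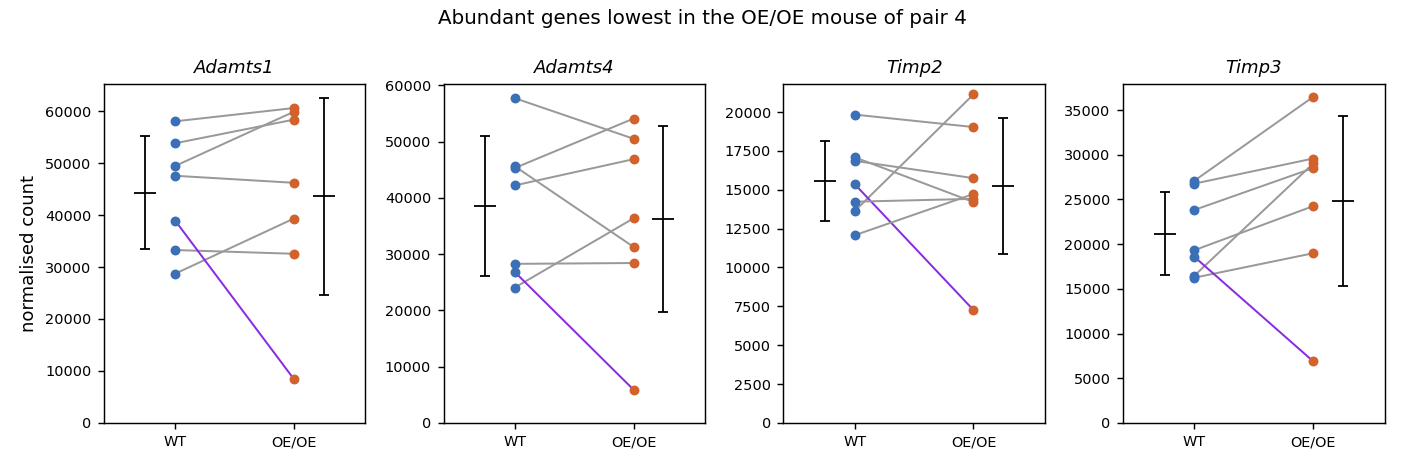
Normalised counts of Adamts1, Adamts4, Timp2 and Timp3 (vertical axes from 0) with a line joining the mice of each pair and bars for mean ± SD (n = 7). The purple line of pair 4 drops to 8418, 5868, 7262 and 6882 in its OE/OE mouse, below every other library.

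Pair 4 differed across the set. Of the 49 genes, 20 (40.8%) had a log2 ratio beyond 1 in either direction there, 15 lower and 5 higher, where 19.7% of all genes did. In the other pairs the share was between 2.04% and 16.3% of the 49 genes and between 3.02% and 10.1% of all genes. Timp4, Mmp3, Adamts1 and Adamts4 were among the lowest, at -2.78, -2.54, -2.21 and -2.19. In the same pair the marker scores differed by -2.11 for adipocytes, -1.71 for endothelium, -1.37 for pericytes and smooth muscle and -0.91 for fibroblasts. The part of these cell types in the pair's protease levels was not tested.

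Summed per kb, the MMPs came to between 5521 and 8526 in WT (median 6198) and between 4273 and 7361 in OE/OE (median 5987). The TIMPs came to 7786 to 9662 in WT (median 8068) and 6681 to 10628 in OE/OE (median 8269). The ratio of the TIMP to the MMP sum was 1.09 to 1.56 in WT (median 1.26) and 1.27 to 1.58 in OE/OE (median 1.44), and it was higher in OE/OE in 6 of 7 pairs. It hardly differed in pair 3 (1.257 in WT and 1.268 in OE/OE) and pair 4 (1.559 and 1.564). In pair 8 it was lower in OE/OE, at 1.38 against 1.49. These sums rest on few genes, since Timp2 and Timp3 made up 79.4% of the TIMP sum. The ADAM sum ran from 5471 to 9623 in WT and from 4765 to 10373 in OE/OE, and the ADAMTS sum from 11596 to 25519 and from 3591 to 24180. All 4 sums were lowest in the OE/OE mouse of pair 4. In the other OE/OE mice the lowest MMP, ADAM, ADAMTS and TIMP sums were 5183, 5238, 13049 and 8035.

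Protease activity also depends on activators, partners and other inhibitors, and a list of 41 such genes was examined, of which 37 were in the table. The unadjusted threshold was passed by 3 of them (8.11%, against 3.81% of all genes), 2 higher and 1 lower (1.95% and 1.85% of all genes). Thbs2, thrombospondin-2, which binds MMP2 for uptake by cells, ran from 1518 to 7498 normalised counts in WT and from 1348 to 4470 in OE/OE. It fell by 0.67 on the log2 scale (standard error 0.18, exact sign-flip p = 0.0312, limma adjusted p = 1.00) and was lower in 6 of 7 pairs. Its log2 fold change was -0.35 with the fibroblast score as a covariate and no longer passed. Spock1, which encodes the proteoglycan testican-1, was scarce, at 3.33 to 15.3 normalised counts in WT and 11.4 to 48.0 in OE/OE, and rose by 1.16 (standard error 0.38, exact sign-flip p = 0.0312, 6 of 7 pairs). All its OE/OE libraries held at least 10 fragments, but several WT libraries held fewer, down to 4. Spock1 thus met the authors' filter only with the group where it is high, which limits what its rise can show. Rhbdf2 encodes iRhom2, which carries ADAM17 to the cell surface. It rose in all 7 pairs (exact sign-flip p = 0.0156) and by 0.21 in the fit (limma adjusted p = 1.00, standard error 0.07), from a mean of 2635 ± 510 to 3047 ± 641 (SD, n = 7 each). With the fibroblast score as a covariate Spock1 and Rhbdf2 did not pass, at 0.52 and 0.17, and with the pan-epithelial score none of the 3 genes did. Thbs2 and Rhbdf2 did not pass without the block, and Spock1 did not in the paired test or with the adipocyte score, and was at 0.71 with a pseudocount of 10.

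Other genes of that list did not pass. Furin, the convertase that activates membrane-type MMPs and ADAMs, had a log2 fold change of 0.070 ± 0.089 (exact sign-flip p = 0.469). Bsg (basigin, an inducer of MMPs) had one of 0.0094 ± 0.083, Plau (urokinase) one of -0.033 ± 0.087 and Plaur, its receptor, one of 0.12 ± 0.13. Reck, a membrane-anchored MMP inhibitor, had one of -0.17 ± 0.18, with 379.8 normalised counts in the OE/OE mouse of pair 4 and 776.9 to 1454 in WT.

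Of 22 matrix substrates of these proteases, 19 were in the table and 2 passed the unadjusted threshold, both lower (1.85% of all genes). Lum, the small proteoglycan lumican and also one of the fibroblast markers, fell by 0.53 (standard error 0.18, exact sign-flip p = 0.0469, limma adjusted p = 1.00) and was lower in 6 of 7 pairs. Fbn1, fibrillin-1, fell by 0.30 (standard error 0.12, exact sign-flip p = 0.109, limma adjusted p = 1.00) and was lower in 5. Negative values were found for 15 of the 19 (78.9%, against 50.4% of all genes). Fbn1 no longer passed with limma without trend, with median centring, without the block, with the per-gene paired test, with any of the 4 marker scores or without pair 3, 4, 5, 6 or 7. Lum no longer passed with the paired test, with any of the 4 scores or without pair 5. All 24 membrane proteins listed as ADAM substrates were in the table, with a median log2 fold change of 0.0046 and 12 values on each side of 0. Ptprk, a receptor phosphatase, was the 1 that passed, rising by 0.18 (standard error 0.07, exact sign-flip p = 0.0469, limma adjusted p = 1.00) in 6 of 7 pairs (background 1.95%). It no longer passed with limma without trend, with quantile normalization, without the block, with any of the 4 scores or without pair 3, 5, 6 or 7.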

How the data were processed

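RNA of mammary epithelial cells from 7 WT and 7 OE/OE mice was analysed at 1 library per mouse. Per the labels and the study's methods, the authors aligned read pairs with TopHat 2.0.10 to the mm10 genome, counted fragments per GENCODE M21 gene with HTSeq 0.6.0, kept genes with 10 fragments in at least 7 libraries and divided counts by DESeq 1.18.0 size factors. The deposited values are this signal, normalised counts on a linear scale. Whether counting used strand is not given in the sources used here. All values (100%) were whole multiples of 1 fragment within 0.01, which gave the fragments and the depth (20125106 to 41835978 per library). No deposited sample column was left unused, and all 16124 identifiers matched GENCODE M21, from which positions and exon lengths were taken. Depth sets the counting error of each value, and it is largest for genes with a few fragments.

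Limma 3.58.1 in R 4.3.3 (lmFit, eBayes with a trend) was run on log2(normalised count + 1) blocking on the littermate pair, in place of the study's paired test per gene, at its threshold of 0.05 on the unadjusted p. Such p-values rest on the spread of the within-pair differences of these 7 pairs, with variances moderated across genes. The block takes out the spread between litters. Pairs come from the labels and the littermate matching, and same-numbered libraries deviated together in 7 of 7 pairs (lowest correlation across genes 0.171, median 0.522, other combinations -0.151). Single genes and marker scores (mean log2 level of a list) were also tested two-sided by enumerating all 128 sign patterns of the 7 pair differences (exact sign-flip p). EdgeR 4.0.16 and DESeq2 1.42.0 on recovered fragments were alternatives, with other pseudocounts (0.1 and 10), a mean of at least 50, limma without trend, no block, TMM scaling, quantile normalization, median centring, the paired test, 1 of 4 marker scores as a covariate, and runs without 1 pair. The code was tested on simulated data. Named genes are all TIMPs, those past the threshold, the 3 most abundant MMPs, ADAMs and ADAMTS genes, the 3 largest fold changes and a list of genes with known roles. The genes and lists were chosen with earlier results of these data known. Promoter sequences are from RefSeq (GRCm38.p6), where 31 of the 49 genes matched. The result of 1 further gene is not reported here.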

Additional observations from a re-analysis of the deposited data

Results flagged for a closer look

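For each named gene, the highest and the lowest mouse of each genotype were set against the others by the gap to the nearest mouse relative to the whole range of the group on the log2 scale. In 7 of 68 groups of 7 mice this was above Dixon's 95% limit, and chance alone would give 3.4, about 1 group in 20. Genes of the same mouse are not independent. The OE/OE mouse of pair 4 was far below the other OE/OE mice in Adamts1 (gap 0.685 of the range, 8418 normalised counts with the nearest mouse at 32549), Adamts4 (0.710, 5868 and 28427), Timp2 (0.628, 7262 and 14211), Timp3 (0.608, 6882 and 18984), Adam15 (0.628, 3826 and 6058) and Reck (0.625, 379.8 and 864.9). The OE/OE mouse of pair 1 was far above the others in Plau (0.576, 10449 and 3571), and its WT littermate was also the highest WT mouse, at 7805.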

How the results depend on the processing

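Of the 49 genes, 3 passed the unadjusted threshold, all lower, of 614 genes in all. Without the littermate pair as a replicate block 1 passed (Mmp19), of 182 genes in all, and 1 of the 37 activators, partners and inhibitors (Spock1). The per-gene paired test on untransformed counts gave 1 (Mmp19, of 644 genes in all) and quantile normalization 4 (of 622). With the fibroblast score as a covariate 1 gene passed as higher (Mmp17) and 1 as lower (Mmp19), of 420 genes in all, and 0 activators, partners and inhibitors. With the adipocyte score 17 passed (8 higher and 9 lower, of 2591 genes in all) and 10 of the 37. With the pan-epithelial score 1 passed (Mmp19, of 259 genes in all) and 1 of the 37 (Furin). Leaving out 1 pair gave between 1 (without pair 5) and 8 (without pair 1) of the 49, with 0 to 2 higher (Timp3 and Timp4, without pair 4) and 1 to 8 lower. Over all genes, 484 passed without pair 5, 1196 without pair 1 and 1366 without pair 4. The unadjusted p of Mmp19 stayed at 0.05 or less in each of the 22 alternatives. Mmp23 no longer passed without the block, with the per-gene paired test, with any of the 4 marker scores or without pair 3 or 5. Adam12 no longer passed in these settings either, except with the adipocyte score and without pair 3, where it did. Over the named genes, 598 values kept direction and side of the threshold, 54 no longer passed, 9 newly passed and 85 changed sign. Depth limits genes with few fragments, such as Mmp27 and Spock1. Named genes that changed sign had not passed the test, and the cause was not tested. Their log2 fold changes were as follows. With DESeq2 they were Adam8 -0.067, Adamts5 0.000 and Timp4 0.076. With edgeR they were Adam8 -0.060, Adamts5 0.001 and Timp4 0.071. With the adipocyte score as a covariate they were Adam15 0.30, Adam17 -0.028, Adam8 -0.89, Adamts1 0.43, Adamts4 0.37, Adamts5 0.28, Adamts9 0.068, Mmp14 -0.17, Mmp27 0.21, Mmp3 0.073, Timp2 0.33, Timp4 1.02, Furin -0.050, Plau 0.049 and Reck 0.26. With the fibroblast score they were Adam15 0.20, Adam17 -0.011, Adam8 -0.48, Adamts1 0.18, Adamts4 0.16, Adamts5 0.28, Mmp2 0.055, Mmp27 0.29, Timp2 0.21, Timp4 0.62, Plau 0.038 and Reck 0.18. With the macrophage score they were Adam10 -0.014, Adam15 0.063, Adam8 -0.24, Adamts1 0.013, Adamts5 0.090, Mmp11 0.29 and Timp4 0.30. With the pan-epithelial score they were Adam10 -0.049, Adamts5 0.18, Mmp11 0.16, Mmp15 -0.14, Mmp2 0.15, Mmp9 0.13 and Plaur -0.049. With median centring they were Adamts5 0.017 and Timp4 0.017. With the per-gene paired test they were Adamts5 0.053, Mmp11 0.22, Timp4 0.077 and Plau 0.11. With a pseudocount of 10 it was Timp4 0.001. With quantile normalization they were Adam10 -0.022, Adam17 -0.045, Mmp11 0.009, Timp4 0.055 and Bsg -0.069. Over the runs without 1 pair the ranges that crossed 0 were Adam10 -0.059 to 0.063, Timp3 -0.008 to 0.37, Bsg -0.024 to 0.055, Adamts5 -0.083 to 0.14, Adam15 -0.10 to 0.12, Adam8 -0.43 to 0.20, Adamts1 -0.30 to 0.14, Adamts4 -0.42 to 0.046, Mmp14 -0.008 to 0.16, Timp2 -0.20 to 0.086, Timp4 -0.26 to 0.46, Reck -0.29 to 0.010, Adam9 -0.002 to 0.11, Mmp11 -0.32 to 0.19, Mmp15 -0.10 to 0.17, Adam17 -0.015 to 0.028 and Plau -0.11 to 0.009.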
